A study of Homo sapiens with 12 samples.

Results

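The genes described here are the MAP kinase cascade and the dual-specificity phosphatases (DUSPs), in MNNG/HOS osteosarcoma cells given the small molecule NXP800. They were chosen by symbol alone, as every gene named MAPK, MAP2K, MAP3K, MAP4K or DUSP followed by a number. No measured value enters this rule, though it was set with earlier results of these data known. It found 67 of the 43236 gene symbols counted. Of these, 59 had enough counts to be tested. *MAPK4*, *MAPK15*, *MAP3K19*, *MAP4K1*, *DUSP13*, *DUSP21*, *DUSP23* and *DUSP29* did not, and *MAP3K19*, *DUSP21*, *DUSP23* and *DUSP29* had 0 counts in all 12 libraries.

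MNNG/HOS is an established human osteosarcoma cell line, grown as 1 line with no genetic change named between the groups. Treatment was with the solvent DMSO or with NXP800 at 300 nM, and lasted 6 h or 24 h, and polyadenylated RNA was sequenced from 3 libraries of each of the 4 groups. The study asks how NXP800, which it describes as acting on the stress kinase GCN2 and the unfolded protein response, changes these cells. Each time point was compared with its own DMSO libraries, and the labels do not say whether replicates came from separate cultures, so the p-values measure the spread between these libraries only.

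In a MAP kinase cascade a MAP3K phosphorylates a MAP2K, which in turn phosphorylates a MAP kinase, and MAP4Ks act further upstream. The ERK branch mainly carries growth factor signals, while the JNK and p38 branches are best known for responses to cytokines and cell stress, among them stress of the endoplasmic reticulum. The MAP kinase phosphatases, a subgroup of the DUSPs, remove both activating phosphates from a MAP kinase, and many of their genes are themselves induced by the pathway they switch off. RNA levels of these genes do not report the phosphorylation of their products.

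The libraries held 30810614 to 31947656 counts on genes. Reads that fell on no annotated gene were 6.66 to 8.14% at 6 h and 2.73 to 3.67% at 24 h, without separating treatments, so levels are compared within a time point. *VIM*, *SPARC*, *COL1A1* and *RUNX2*, markers of mesenchymal and bone-forming cells, were present in every library, and *COL1A2*, *ALPL* and *BGLAP* were at or near 0. With NXP800 *SPARC* fell by -0.79 on the log2 scale at 6 h and -2.02 at 24 h and *COL1A1* by -0.50 and -0.76, *VIM* fell by -0.48 at 24 h, and *RUNX2* rose by 0.71 and 0.36. Among 5 markers of other cell types, those of blood (*PTPRC*), liver (*ALB*) and glia (*GFAP*) stayed at or under 0.201 CPM (counts per 1000000 counts of a library, scaled by TMM), and the endothelial *PECAM1* under 1. Epithelial *EPCAM* stood at 5.59 to 7.07 CPM in the other groups and at 10.1 to 10.2 CPM with NXP800 at 24 h. The part of these marker changes in the results was not tested. In bulk RNA, fewer cells of a kind and less RNA per cell cannot be told apart.

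At 6 h, 41 of the 59 tested genes passed the test, 69.5% against 52.8% of all 15979 genes tested. The test is edgeR's quasi-likelihood test at a Benjamini-Hochberg adjusted p below 0.05 over all tested genes. Of the 59, 21 rose and 20 fell, beside 25.0 and 27.8% of all tested genes. The median log2 fold change of the 59 was 0.04 against -0.05 over all tested genes. Over 2-fold rises were seen for 5 genes (background 6.02%), all of them phosphatases, and an over 2-fold fall for 1 (background 5.23%), the kinase gene *MAP3K5*. At 24 h, 35 of the 59 or 59.3% passed, close to the background of 56.0%. Of the 59, 17 rose and 18 fell, beside 27.5 and 28.6% of all tested genes. At that time 5 rose over 2-fold (background 6.73%), namely *DUSP5*, *DUSP8*, *DUSP10*, *DUSP16* and *MAP3K10*, and 4 fell over 2-fold (background 7.32%), namely *MAP2K3*, *MAP2K6*, *MAP3K5* and *MAP3K14*. All treated libraries lay above all DMSO libraries for 25 genes and below them for 22 at 6 h, where the groups of 62.0% of all tested genes did not overlap, and for 17 and 20 at 24 h, where 59.1% did not. The 2 time points do not share control libraries.

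The phosphatases known to act mainly on JNK and p38, *DUSP8*, *DUSP10* and *DUSP16*, all rose at both time points, each by more than 2-fold. Of all tested genes, 6.02% rose over 2-fold at 6 h and 6.73% at 24 h. Their rises ranged from 1.57 to 2.25 on the log2 scale at 6 h and from 1.47 to 2.32 at 24 h. None of the 3 passed the test of a different response between the time points, with differences of -0.37 to 0.07. The promoters of the 3 genes with the largest rise at 6 h among all 67, *DUSP1*, *DUSP8* and *DUSP10*, are given first because the largest changes of the whole set were theirs at that time. The sequences are RefSeq's for GRCh38.p14, from 250 bases before to 50 after a transcription start, written 5′ to 3′ on the gene's strand. Capitals mark TGACGTCA, the cyclic AMP response element bound by CREB and ATF factors.
DUSP1: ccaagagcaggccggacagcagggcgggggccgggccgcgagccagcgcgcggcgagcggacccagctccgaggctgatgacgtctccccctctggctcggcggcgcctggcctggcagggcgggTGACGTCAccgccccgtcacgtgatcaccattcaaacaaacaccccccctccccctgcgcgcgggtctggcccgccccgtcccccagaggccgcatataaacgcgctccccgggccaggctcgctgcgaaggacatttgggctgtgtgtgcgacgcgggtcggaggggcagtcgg
DUSP8: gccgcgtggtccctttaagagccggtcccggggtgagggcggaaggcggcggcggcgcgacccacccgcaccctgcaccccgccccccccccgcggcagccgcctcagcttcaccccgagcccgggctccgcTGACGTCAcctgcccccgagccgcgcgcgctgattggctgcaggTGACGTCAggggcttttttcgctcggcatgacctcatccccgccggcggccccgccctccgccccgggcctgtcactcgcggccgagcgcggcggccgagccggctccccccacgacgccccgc
DUSP10: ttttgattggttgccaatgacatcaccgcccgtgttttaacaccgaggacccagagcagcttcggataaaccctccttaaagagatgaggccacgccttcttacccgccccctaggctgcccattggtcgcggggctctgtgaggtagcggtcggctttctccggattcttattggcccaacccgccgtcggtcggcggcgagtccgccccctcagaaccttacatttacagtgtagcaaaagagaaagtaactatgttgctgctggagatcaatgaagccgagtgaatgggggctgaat

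These windows are chr5:172771146-172771445 for *DUSP1*, chr11:1572222-1572521 for *DUSP8* and chr1:221742040-221742339 for *DUSP10*, all on the minus strand. The start used for *DUSP8* lies inside the annotated gene span, chr11:1554051-1572848. Both strands were searched for 3 patterns, none of which can lie within another: TGACGTCA, TGATGNAAT (the composite element of C/EBP and ATF factors) and TGANTCA (the AP-1 element). TGACGTCA was found in the promoters of *DUSP1*, at -125 from the start, and of *DUSP8*, at -118 and -74. It was found in 4 of the 58 members with a promoter entry, the other two being *MAPK10* and *MAP3K13*, and in 649 of all 35116 promoters (1.85%). TGATGNAAT, present in 0.991% of all promoters, matched no member, and TGANTCA, present in 7.71%, matched *MAP2K3* at -41. The *DUSP10* window held none of the 3 patterns, which says only that these letters are not in it.

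*DUSP10* (chr1:221701424-221742089), which encodes MKP-5, had 3.90, 4.26 and 2.95 CPM with DMSO and 17.7, 15.5 and 13.3 CPM with NXP800 in replicates 1 to 3 at 6 h. At 24 h the values were 2.78, 1.48 and 2.75 CPM with DMSO and 5.84, 8.78 and 8.14 CPM with NXP800. The groups did not overlap at either time. Its log2 fold change was 2.07 ± 0.20 (SE, n = 3 against 3, edgeR adjusted p = 3.29e-07) at 6 h and 1.70 ± 0.22 (edgeR adjusted p = 5.82e-06) at 24 h.

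*DUSP16* (chr12:12473282-12562863), which encodes the JNK phosphatase MKP-7, had 8.21, 6.78 and 7.69 CPM with DMSO and 25.2, 23.7 and 18.4 CPM with NXP800 at 6 h. The 24 h values were 10.54, 9.58 and 13.3 CPM with DMSO and 25.6, 34.6 and 31.9 CPM with NXP800. All treated libraries again lay above all DMSO libraries, by 1.57 ± 0.15 at 6 h (edgeR adjusted p = 2.75e-07) and 1.47 ± 0.14 at 24 h (edgeR adjusted p = 3.08e-07). *DUSP8* was far lower, with 18, 8 and 12 counts in the DMSO libraries and 70, 64 and 52 with NXP800 at 6 h, and 11, 7 and 19 against 45, 84 and 68 counts at 24 h. The summed counts gave a ratio of 4.81 at 6 h (exact 95% interval 3.38 to 7.01, counting error only) and 5.05 at 24 h (3.54 to 7.39), and no treated library overlapped a DMSO library.

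**Figure D1:**
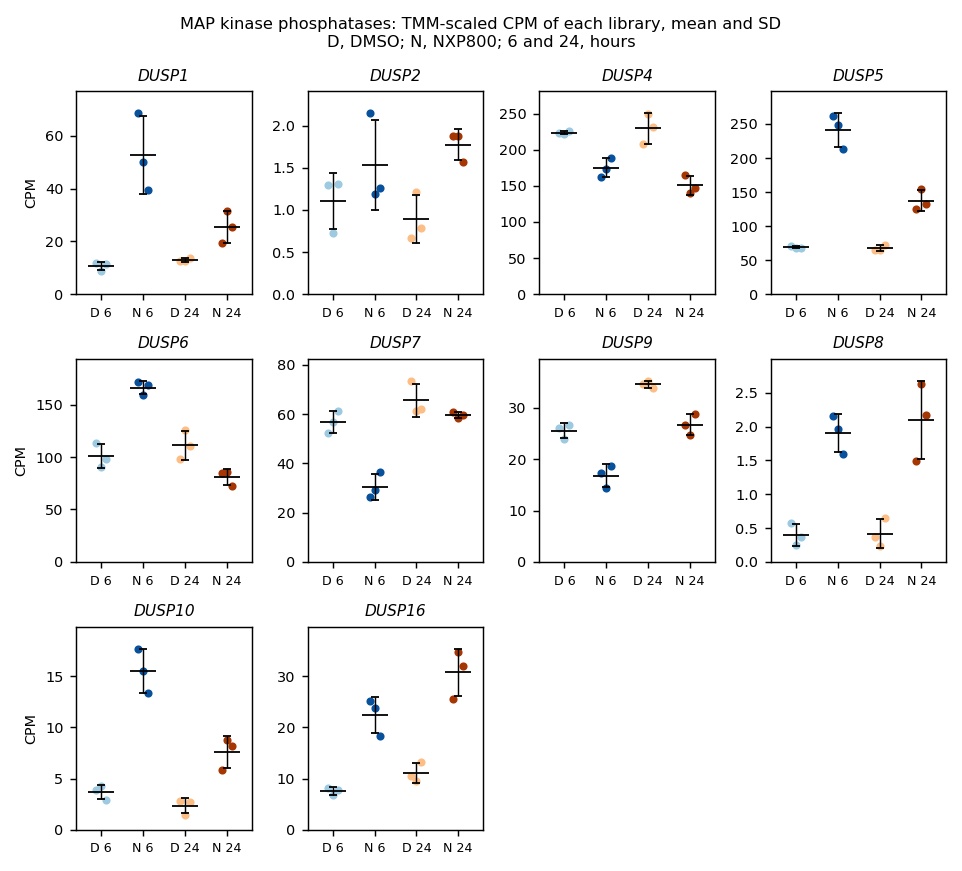
TMM-scaled CPM (vertical axis, from 0) of the 10 MAP kinase phosphatase genes in each library (points) with the mean and SD of the 3 libraries of a group (bars), for DMSO (D) and NXP800 (N) at 6 and 24 h. *DUSP8*, *DUSP10* and *DUSP16* are above DMSO in every treated library, and *DUSP6* is above DMSO at 6 h and below it at 24 h.

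Of the nuclear phosphatases with a broad range of MAP kinase substrates, *DUSP1* rose and *DUSP4* fell at both time points. *DUSP1* (chr5:172768096-172771195), an immediate early gene encoding MKP-1, had 11.9, 8.80 and 11.3 CPM with DMSO and 68.6, 50.1 and 39.3 CPM with NXP800 at 6 h. At 24 h its values were 12.7, 12.4 and 13.7 CPM with DMSO and 19.3, 31.4 and 25.3 CPM with NXP800. The groups did not overlap at either time, and the treated libraries were the more spread. The rise was 2.31 ± 0.19 at 6 h (edgeR adjusted p = 6.22e-08), 4.94-fold, and 0.97 ± 0.19 at 24 h (edgeR adjusted p = 0.00036), 1.96-fold. The difference of -1.34 ± 0.26 between the 2 responses passed its own test (edgeR adjusted p = 0.00159).

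*DUSP4*, which encodes MKP-2, had 223, 222 and 226 CPM with DMSO and 163, 174 and 189 CPM with NXP800 at 6 h. The values at 24 h were 208, 249.5 and 231 CPM with DMSO and 165, 140.1 and 147 CPM with NXP800. Every treated library was below every DMSO library of its time point. The falls were modest, -0.35 ± 0.08 (edgeR adjusted p = 0.00121) and -0.61 ± 0.08 (edgeR adjusted p = 6.88e-06). *DUSP2*, named after its values were seen, stayed at or under 2.15 CPM in every library. It passed the test at 24 h alone, by 0.99 ± 0.30 (edgeR adjusted p = 0.00895), and its difference between time points, 0.53, did not pass.

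The phosphatases known to act mainly on ERK moved in different directions. *DUSP5* (chr10:110497907-110511533), whose product holds ERK in the nucleus and dephosphorylates it there, had 70.4, 68.5 and 68.5 CPM with DMSO and 261, 249 and 213 CPM with NXP800 at 6 h. Its 24 h values were 65.5, 64.2 and 72.8 CPM with DMSO and 125, 155 and 133 CPM with NXP800. The treated and DMSO libraries were well apart at both times. The rise of 1.80 ± 0.09 at 6 h (edgeR adjusted p = 2.45e-10) was larger than that of 1.03 ± 0.09 at 24 h (edgeR adjusted p = 6.96e-08), with a difference of -0.77 ± 0.12 (edgeR adjusted p = 0.000273).

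*DUSP6* (chr12:89347235-89352501), the cytoplasmic ERK phosphatase MKP-3, changed sign. Its level at 6 h was 113, 90.5 and 98.4 CPM with DMSO and 171, 159 and 168 CPM with NXP800. At 24 h it was 98.3, 126 and 110.1 CPM with DMSO and 85.0, 85.9 and 72.5 CPM with NXP800. All treated libraries were above DMSO at 6 h and below it at 24 h, by 0.72 ± 0.09 (edgeR adjusted p = 9.19e-06) and -0.46 ± 0.10 (edgeR adjusted p = 0.000671). The difference was -1.18 ± 0.13 (edgeR adjusted p = 1.35e-05). Of its exonic length, 28.6% overlaps a gene on the opposite strand, and the strand setting of the counting is not given in the sources used here.

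*DUSP7* and *DUSP9*, which encode the other two cytoplasmic ERK phosphatases, fell at 6 h. For *DUSP7* the 6 h values were 52.3, 56.9 and 61.2 CPM with DMSO and 26.2, 29.1 and 36.4 CPM with NXP800. At 24 h they were 73.5, 61.4 and 61.9 CPM with DMSO and 60.9, 58.6 and 59.8 CPM with NXP800. The groups were apart at 6 h, by -0.90 ± 0.10 (edgeR adjusted p = 2.61e-06), and the gap of -0.13 at 24 h did not pass the test. The difference of 0.76 ± 0.14 did (edgeR adjusted p = 0.00122). *DUSP9* fell at both time points, by -0.61 and -0.37.

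Per kilobase of exon, on the CPM scale, the 10 phosphatases summed to 112 ± 4.33 with DMSO and 209.5 ± 15.8 with NXP800 at 6 h (mean ± SD, n = 3), a ratio of 1.88. The sums at 24 h were 120.5 ± 5.28 and 137 ± 8.74, a ratio of 1.14. *DUSP5* supplied 24.4% of this RNA with DMSO and 45.3% with NXP800 at 6 h, and 22.1% against 39.5% at 24 h. The share of *DUSP4* went from 27.6 to 11.6% at 6 h and from 26.2 to 15.2% at 24 h. These shares depend on the exon lengths used, 2.535 kilobases for *DUSP5* and 7.273 for *DUSP4*. Without scaling by length, *DUSP5* stood at 241 CPM and *DUSP4* at 175 CPM with NXP800 at 6 h. At 24 h with NXP800 the order was the other way, at 137 CPM for *DUSP5* and 151 CPM for *DUSP4*. The 3 JNK- and p38-directed genes supplied 2.19% with DMSO and 4.29% with NXP800 at 6 h, and 2.06% against 5.39% at 24 h. These sums are descriptions, and no test was run on them.

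**Figure D2:**
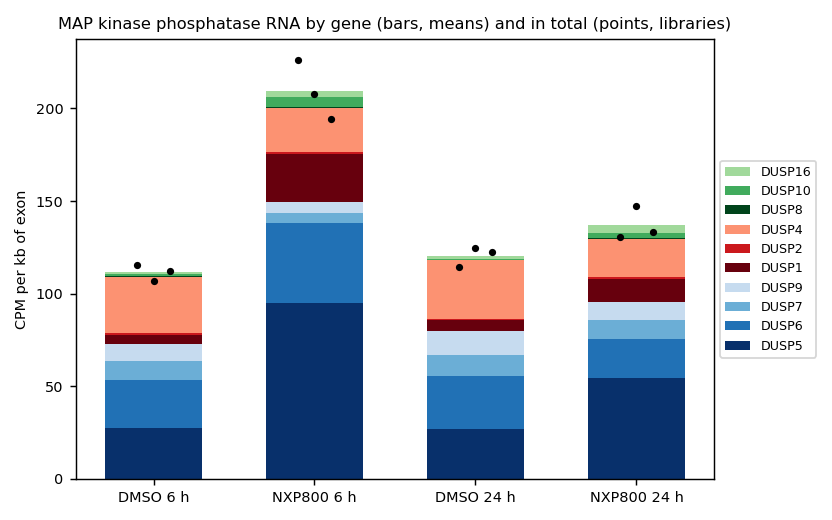
Summed CPM per kilobase of exon (vertical axis) of the 10 MAP kinase phosphatase genes in each group, as stacked group means by gene, with points for the total in each library. The treated libraries at 6 h total 194 to 226, above the 107 to 116 of DMSO. On this length-scaled measure, *DUSP5* makes up the largest block in both NXP800 groups.

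In the JNK branch, 1 of the 5 kinase genes rose and 1 fell at 6 h, and 3 rose and 1 fell at 24 h, none of them over 2-fold. The share called was 40% at 6 h and 80% at 24 h, against 52.8 and 56.0% of all tested genes. *MAPK8* (chr10:48306677-48439360), which encodes JNK1, had 24.7, 29.5 and 25.7 CPM with DMSO and 40.7, 45.7 and 41.9 CPM with NXP800 at 6 h. At 24 h the values were 25.3, 26.0 and 25.0 CPM with DMSO and 31.7, 33.5 and 25.6 CPM with NXP800. The 6 h groups were well apart, by 0.68 ± 0.09 (edgeR adjusted p = 1.67e-05), while at 24 h replicate 3 with NXP800 lay between the DMSO libraries. The rise of 0.25 ± 0.10 at 24 h (edgeR adjusted p = 0.035) lost its call without any 1 of DMSO replicates 1, 2 and 3 or NXP800 replicates 1 and 2 of 24 h, at 0.20 to 0.27. The difference of -0.43 ± 0.14 (edgeR adjusted p = 0.0273) lost its call without any 1 of DMSO replicates 1 and 3 and NXP800 replicate 2 of 6 h or of DMSO replicate 2 and NXP800 replicate 3 of 24 h, at -0.32 to -0.42.

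*MAPK9* (JNK2) moved the other way. With DMSO it had 73.3, 85.6 and 83.4 CPM and with NXP800 67.3, 72.7 and 72.9 CPM at 6 h, and 81.2, 90.1 and 87.2 CPM against 64.8, 73.5 and 71.8 CPM at 24 h. Every treated library was below every DMSO library of its time point. The fall was -0.30 ± 0.07 at 24 h (edgeR adjusted p = 0.0023). At 6 h it was -0.19 ± 0.07 (edgeR adjusted p = 0.04), a call lost with DESeq2 size factors (-0.17, edgeR adjusted p = 0.0553) and without any 1 of DMSO replicates 2 and 3 and NXP800 replicates 1, 2 and 3 of 6 h or NXP800 replicate 2 of 24 h, at -0.14 to -0.20. That call was also lost with library size only (edgeR adjusted p = 0.0927) and with no filter on low counts (edgeR adjusted p = 0.0591). The DESeq2 Wald test (DESeq2 adjusted p = 0.0681) and the libraries of 6 h alone (edgeR adjusted p = 0.0711) removed it too. *MAPK10* (JNK3), a mainly neuronal kinase, was at or under 0.380 CPM in every library and passed neither test, but passed at 24 h without DMSO replicate 2 of that time (1.72, edgeR adjusted p = 0.0172).

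The summed RNA of the 3 JNK genes per kilobase, in CPM, was 11.8 ± 0.95 with DMSO and 12.4 ± 0.56 with NXP800 at 6 h, and 12.3 ± 0.54 against 10.96 ± 0.63 at 24 h. Within it, the share of *MAPK8* was 23.4% with DMSO and 35.8% with NXP800 at 6 h, and 21.5% against 28.5% at 24 h. The JNK activator *MAP2K7* (MKK7) had 45.3, 45.1 and 42.7 CPM with DMSO and 48.2, 43.0 and 45.7 CPM with NXP800 at 6 h. It had 55.6, 57.1 and 53.8 CPM against 65.0, 65.4 and 68.4 CPM at 24 h, where alone the groups were apart and the rise of 0.26 ± 0.06 passed (edgeR adjusted p = 0.00222). *MAP2K4* (MKK4), which activates JNK and p38, rose by 0.25 at 24 h. Its change of 0.16 at 6 h did not pass (edgeR adjusted p = 0.065) but passed with the replicate block (edgeR adjusted p = 0.0494) and without NXP800 replicate 2 of 24 h (0.19, edgeR adjusted p = 0.0292).

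In the p38 branch, 3 of the 6 kinase genes fell at each time point and none rose. Of all tested genes, 27.8% fell and 25.0% rose at 6 h, and 28.6% fell and 27.5% rose at 24 h. Counted in either direction, the share called was 50% at each time, close to the background of 52.8% at 6 h and 56.0% at 24 h. *MAPK14* (chr6:36027808-36124214), which encodes p38α and supplied 84.8% of the summed p38 RNA per kilobase with DMSO at 6 h, had 70.7, 71.8 and 72.5 CPM with DMSO and 45.2, 47.9 and 49.96 CPM with NXP800. The 24 h libraries had 79.0, 72.5 and 73.0 CPM with DMSO and 65.9, 64.3 and 69.1 CPM with NXP800. The groups were apart at both times, more widely at 6 h. The fall was -0.59 ± 0.06 at 6 h (edgeR adjusted p = 8.43e-07) and the difference to 24 h was 0.42 ± 0.09 (edgeR adjusted p = 0.00228). The 24 h value, -0.17 ± 0.06 (edgeR adjusted p = 0.024), lost its call with library size only (-0.08, edgeR adjusted p = 0.277) and without DMSO replicate 1 (-0.13), NXP800 replicate 1 (-0.17) or NXP800 replicate 2 (-0.12) of 24 h. That call was also lost with no filter on low counts (edgeR adjusted p = 0.14) and with the libraries of 24 h alone (edgeR adjusted p = 0.0867).

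*MAPK12* (p38γ) fell by -0.56 ± 0.12 at 6 h (edgeR adjusted p = 0.000687), from 11.1 ± 0.79 to 7.49 ± 0.93 CPM (mean ± SD, n = 3). At 24 h its change was 0.10, which did not pass, and the difference of 0.67 ± 0.16 passed (edgeR adjusted p = 0.00675). Of its exonic length 29.7% overlaps another gene on the same strand. *MAPK11* (p38β) and *MAPK13* (p38δ), at or under 3.58 CPM, passed at neither time. *MAPK11* passed at 24 h without NXP800 replicate 2 of 24 h, at 0.86 (edgeR adjusted p = 0.0376). The 4 p38 genes summed to 12.5 ± 0.16 CPM per kilobase with DMSO and 8.49 ± 0.50 with NXP800 at 6 h, and to 12.8 ± 0.47 against 11.8 ± 0.43 at 24 h.

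Both activators of p38 fell at 24 h, and *MAP2K6* at 6 h too. *MAP2K3* (chr17:21284711-21315240), which encodes MKK3, had 77.6, 69.2 and 75.9 CPM with DMSO and 79.9, 71.2 and 65.5 CPM with NXP800 at 6 h. At 24 h it had 70.3, 62.7 and 66.6 CPM with DMSO and 32.1, 31.01 and 36.6 CPM with NXP800. The groups overlapped at 6 h and were apart at 24 h, with a fall of -1.002 ± 0.08 (edgeR adjusted p = 6.1e-08) and a difference of -0.96 ± 0.12 (edgeR adjusted p = 2.74e-05).

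*MAP2K6* (chr17:69414697-69553865), which encodes MKK6, showed the largest fall of the 59 genes. At 24 h it had 100, 118 and 97 counts in the DMSO libraries and 4, 2 and 2 counts with NXP800. The summed counts, 315 against 8, gave 41.5 times as much with DMSO (exact 95% interval 20.8 to 96.9, counting error only), and the fitted log2 fold change was -5.31 ± 0.31 (edgeR adjusted p = 1.12e-09). The 6 h libraries had 2.47, 3.81 and 2.92 CPM with DMSO and 1.75, 1.38 and 1.63 CPM with NXP800, without overlap, a fall of -0.95 ± 0.19 (edgeR adjusted p = 0.000631). *MAP2K6* was a minor transcript beside *MAP2K3*, at 0.938% of their summed RNA per kilobase with DMSO at 6 h and 1.20% at 24 h. That share depends on the exon lengths used, 16.66 kilobases for *MAP2K6* and 3.775 for *MAP2K3*. Without scaling by length, they stood at 3.07 and 74.2 CPM with DMSO at 6 h. Together they summed to 17.8 ± 0.98 CPM per kilobase with DMSO and 8.81 ± 0.78 with NXP800 at 24 h.

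In the ERK branch, *MAPK3* (ERK1) had 23.0, 24.7 and 19.7 CPM with DMSO and 18.5, 19.6 and 17.3 CPM with NXP800 at 6 h. It had 31.8, 35.6 and 31.9 CPM against 22.8, 19.6 and 22.9 CPM at 24 h, again with all treated libraries the lower ones. Its fall was -0.61 ± 0.09 at 24 h (edgeR adjusted p = 4.49e-05). At 6 h it was -0.28 ± 0.10 (edgeR adjusted p = 0.021), a call lost without any 1 of DMSO replicates 1 and 2 and NXP800 replicates 1 and 3 of 6 h, at -0.21 to -0.28.

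Of the ERK activators, *MAP2K1* (MEK1) passed at neither time, at 0.04 and 0.06. *MAP2K2* (MEK2) had 125, 121 and 118 CPM with DMSO and 109, 101 and 106 CPM with NXP800 at 6 h, and 162, 153 and 164 CPM against 146, 139 and 169.6 CPM at 24 h. It fell at 6 h, where the groups were apart, by -0.20 ± 0.07 (edgeR adjusted p = 0.0237), and the 24 h groups overlapped. That call was lost without any 1 of DMSO replicates 1 and 2 and NXP800 replicates 2 and 3 of 6 h, at -0.17 to -0.20. The DESeq2 Wald test (DESeq2 adjusted p = 0.0505) removed it too. At 24 h its change of -0.08 did not pass, but passed without NXP800 replicate 3 of that time (-0.16, edgeR adjusted p = 0.0387).

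**Figure D3:**
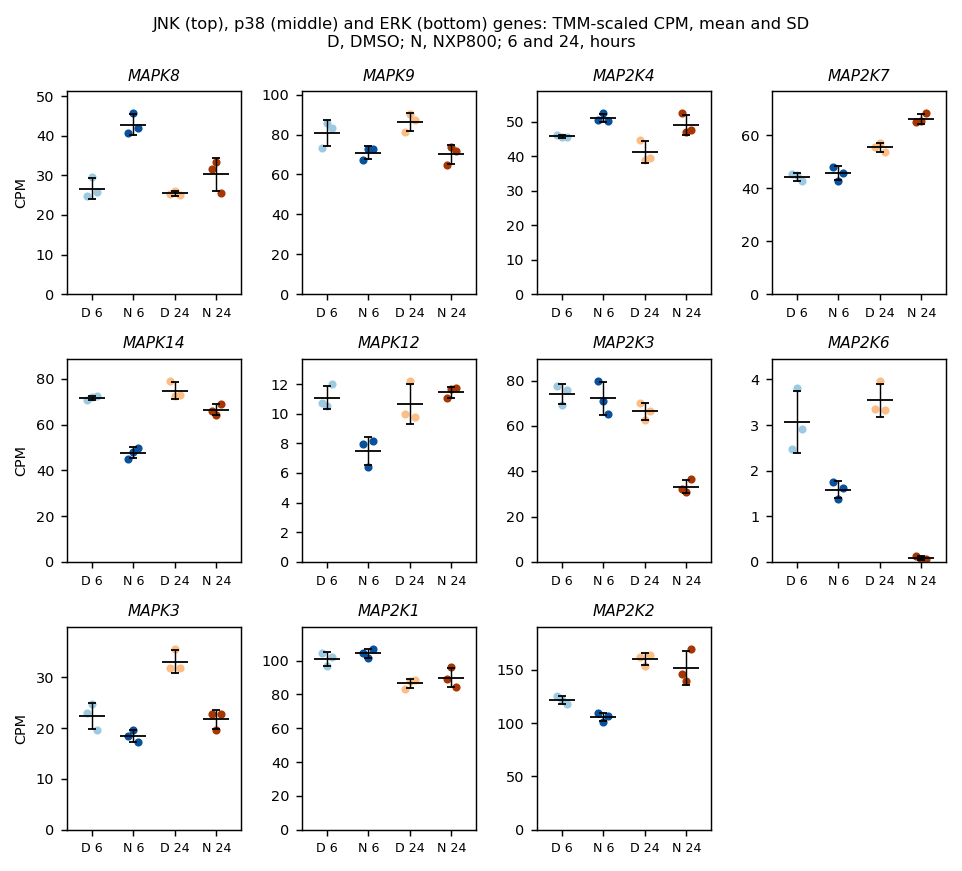
TMM-scaled CPM (vertical axis, from 0) of kinase genes of the JNK (top row), p38 (middle row) and ERK (bottom row) branches in each library (points), with the mean and SD of the 3 libraries of a group (bars), for DMSO (D) and NXP800 (N) at 6 and 24 h. *MAPK8* is higher and *MAPK14* lower with NXP800 at 6 h, *MAP2K3* and *MAP2K6* are lowest with NXP800 at 24 h, and *MAPK3* is lower with NXP800 at both times.

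The ERK5 branch has its own activator, *MAP2K5* (MEK5), which had 14.8, 14.4 and 12.5 CPM with DMSO and 18.3, 16.6 and 16.1 CPM with NXP800 at 6 h, and 15.2, 13.4 and 16.4 CPM against 17.9, 19.3 and 22.8 CPM at 24 h. The groups were apart at both times. It rose at 24 h by 0.41 ± 0.11 (edgeR adjusted p = 0.00393). The 6 h rise of 0.29 (edgeR adjusted p = 0.0329) lost its call without any 1 of DMSO replicates 2 and 3 and NXP800 replicates 1 and 2 of 6 h, at 0.22 to 0.32. *MAPK7*, which encodes ERK5, had 24.4, 26.6 and 27.1 CPM with DMSO and 26.8, 26.2 and 27.3 CPM with NXP800 at 6 h, and 31.1, 30.5 and 28.3 CPM against 27.3, 25.3 and 23.2 CPM at 24 h. Its groups were apart at 24 h alone, with a fall of -0.25 ± 0.08 (edgeR adjusted p = 0.012) that lost its call without NXP800 replicate 3 of that time (-0.19) and with library size only (-0.16, edgeR adjusted p = 0.0998). *MAPK6*, which encodes the atypical kinase ERK3, had 149, 137 and 133 CPM with DMSO and 225, 232 and 206 CPM with NXP800 at 6 h, and 125, 115 and 110.0 CPM against 159, 154 and 133 CPM at 24 h. All treated libraries were the higher ones, by 0.66 ± 0.08 (edgeR adjusted p = 3.06e-06) and 0.35 ± 0.08 (edgeR adjusted p = 0.00126).

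Among the 17 tested MAP3K genes, the upstream kinases, 3 rose (background 25.0%) and 9 fell (background 27.8%) at 6 h. At 24 h 2 rose (background 27.5%) and 7 fell (background 28.6%). The share called was 70.6% at 6 h against the background of 52.8%, and 52.9% at 24 h against 56.0%, and the medians were -0.25 and -0.18. *MAP3K5* (chr6:136557046-136793091), which encodes the stress kinase ASK1 upstream of JNK and p38, had 17.4, 14.03 and 13.97 CPM with DMSO and 6.42, 6.61 and 6.88 CPM with NXP800 at 6 h. The values at 24 h were 13.3, 10.8 and 12.4 CPM with DMSO and 5.55, 5.61 and 5.65 CPM with NXP800. The groups were far apart at both times, with falls of -1.19 ± 0.11 (edgeR adjusted p = 2.6e-07) and -1.12 ± 0.12 (edgeR adjusted p = 5.69e-07) and a difference of 0.07 that did not pass.

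*MAP3K14* (chr17:45263119-45317020), which encodes NIK, the kinase of the non-canonical NF-κB pathway, had 146, 145 and 151 CPM with DMSO and 97.8, 84.7 and 79.9 CPM with NXP800 at 6 h. After 24 h it had 184, 172 and 176 CPM with DMSO and 51.3, 49.0 and 54.5 CPM with NXP800. All treated libraries were lower, by -0.75 ± 0.07 at 6 h (edgeR adjusted p = 2.88e-07) and -1.78 ± 0.07 at 24 h (edgeR adjusted p = 3.47e-11), and the difference of -1.03 ± 0.10 passed (edgeR adjusted p = 3.66e-06). Of its exonic length, 15.1% overlaps another gene. With DMSO it had the highest level per kilobase of the MAP3K genes, 26.0 at 6 h and 31.3 at 24 h, in CPM.

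*MAP3K10*, which encodes the mixed-lineage kinase MLK2, rose. It had 4.69, 3.59 and 5.41 CPM with DMSO and 7.34, 6.85 and 6.29 CPM with NXP800 at 6 h, and 5.05, 5.21 and 5.39 CPM against 9.41, 13.0 and 12.6 CPM at 24 h. The treated libraries were the higher ones at both times, by 0.58 ± 0.15 (edgeR adjusted p = 0.00463) and 1.16 ± 0.15 (edgeR adjusted p = 6.05e-06). *MAP3K6* (ASK2) fell by -0.78 and -0.76, *MAP3K11* (MLK3) by -0.72 and -0.36, and *MAP3K3* (MEKK3) by -0.27 and -0.30. *MAP3K12* (DLK) fell by -0.67 at 6 h and stood at 0.07 at 24 h, with a difference of 0.74 that passed. Of its exonic length, 18.7% overlaps another gene. *MAP3K20* (ZAK), the kinase that senses stalled ribosomes, rose by 0.50 at 6 h and stood at -0.09 at 24 h, with a difference of -0.59 ± 0.09 (edgeR adjusted p = 0.000255). *MAP3K1*, *MAP3K2*, *MAP3K4* and *MAP3K21* were also called at 6 h, at -0.25, 0.34, -0.22 and -0.43, and the first 3 at 24 h, at -0.50, 0.22 and -0.18. Several of these calls were lost when any 1 of several libraries was left out. That of *MAP3K1* at 6 h was lost without any 1 of DMSO replicates 2 and 3 and NXP800 replicates 1 and 3 of 6 h (-0.23 to -0.24), and that of *MAP3K21* without DMSO replicate 3 or NXP800 replicates 1 or 2 of 6 h (-0.37 to -0.41). That of *MAP3K4* was lost at 6 h without DMSO replicates 1 or 3 or NXP800 replicate 2 of 6 h (-0.16 to -0.20), and at 24 h without DMSO replicate 1 or any NXP800 replicate of 24 h (-0.14 to -0.19). The 24 h call of *MAP3K4* was also lost with library size only (-0.09, edgeR adjusted p = 0.31) and with no filter on low counts. It was lost too with the libraries of 24 h alone and with the DESeq2 Wald test. No filter on low counts also removed the 6 h call of *MAP3K1*. The 24 h call of *MAP3K2* was lost without DMSO replicates 2 or 3 or NXP800 replicates 1 or 2 of 24 h (0.20 to 0.22). With the replicate block, *MAP3K21* was called at 24 h too, at -0.28 (edgeR adjusted p = 0.0443), as it was without DMSO replicate 1 of that time (-0.38). *MAP3K7* (TAK1), *MAP3K8*, *MAP3K9*, *MAP3K13* and *MAP3K15* passed at neither time, with values from -0.25 to 0.26, but *MAP3K7* passed at 6 h without NXP800 replicate 2 of 24 h (0.14, edgeR adjusted p = 0.0433). With the libraries of 6 h alone, *MAP3K7* (0.14, edgeR adjusted p = 0.0202) and *MAP3K9* (0.18, edgeR adjusted p = 0.0297) passed at 6 h.

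Of the MAP4K genes, which encode Ste20-like kinases upstream of JNK, 3 of 4 tested rose at 6 h (background 25.0%) and 1 fell at 24 h (background 28.6%). *MAP4K3* (GLK) had 46.0, 55.1 and 47.1 CPM with DMSO and 73.6, 86.9 and 78.1 CPM with NXP800 at 6 h, and 40.4, 46.8 and 38.7 CPM against 44.7, 53.5 and 43.0 CPM at 24 h. The 6 h groups were apart, by 0.69 ± 0.10 (edgeR adjusted p = 2.35e-05). The 24 h groups overlapped, at 0.17, which was called with the replicate block (0.16, edgeR adjusted p = 0.0264). *MAP4K4* (HGK) had 166, 155 and 158 CPM with DMSO and 209.7, 225 and 219.8 CPM with NXP800 at 6 h, a rise of 0.45 ± 0.07 (edgeR adjusted p = 4.01e-05). Its 24 h values were 155, 133 and 146 CPM with DMSO and 139, 132 and 121 CPM with NXP800, at -0.14, which passed without DMSO replicate 2 (-0.20) or NXP800 replicate 1 (-0.19) of that time. *MAP4K5* rose by 0.40 at 6 h and stood at -0.03 at 24 h. For these 3 the 24 h response was lower than that at 6 h, by -0.52, -0.59 and -0.43, and each difference passed.

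*MAP4K2* had 4.82, 5.33 and 4.80 CPM with DMSO and 4.08, 4.13 and 3.56 CPM with NXP800 at 6 h, and 5.92, 7.83 and 6.39 CPM against 3.83, 4.51 and 3.29 CPM at 24 h. The treated libraries were lower at both times. The fall of -0.79 ± 0.15 at 24 h passed (edgeR adjusted p = 0.000217). The 6 h value of -0.34 (edgeR adjusted p = 0.0596) passed with the replicate block (edgeR adjusted p = 0.0304) and without DMSO replicate 2 or NXP800 replicate 3 of 24 h, at -0.34 in both.

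The atypical dual-specificity phosphatases are small enzymes without the MAP kinase binding domain, several of which act on other substrates. Of 14 genes 10 were tested, and 6 rose and 2 fell at 6 h, 4 rose and 1 fell at 24 h (80 and 50% called, against 52.8 and 56.0% of all tested genes). *DUSP11*, which encodes an RNA 5′-phosphatase, had 28.9, 26.4 and 27.0 CPM with DMSO and 46.9, 43.2 and 42.0 CPM with NXP800 at 6 h, and 25.4, 25.5 and 26.3 CPM against 40.0, 38.4 and 37.3 CPM at 24 h. Treated and DMSO libraries were well apart, by 0.68 ± 0.07 (edgeR adjusted p = 5.23e-07) and 0.58 ± 0.07 (edgeR adjusted p = 2.46e-06). *DUSP3* (VHR) had 43.2, 42.5 and 42.4 CPM with DMSO and 52.6, 54.6 and 48.7 CPM with NXP800 at 6 h, and 43.99, 40.7 and 44.4 CPM against 65.3, 68.7 and 69.8 CPM at 24 h. All treated libraries were the higher ones. Its rise of 0.28 ± 0.06 at 6 h (edgeR adjusted p = 0.00141) was smaller than that of 0.66 ± 0.06 at 24 h (edgeR adjusted p = 2.93e-07), with a difference of 0.37 ± 0.09 (edgeR adjusted p = 0.00644).

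*DUSP19* had 3.33, 3.41 and 3.68 CPM with DMSO and 2.15, 2.75 and 2.702 CPM with NXP800 at 6 h, and 2.71, 1.98 and 2.78 CPM against 1.52, 1.54 and 1.28 CPM at 24 h. The groups did not overlap, and the fall was -0.79 ± 0.18 at 24 h (edgeR adjusted p = 0.00168). At 6 h it was -0.45 (edgeR adjusted p = 0.0302), lost without any 1 of DMSO replicates 2 and 3 and NXP800 replicate 1 of 6 h, at -0.35 to -0.47. That call was also lost with no filter on low counts (edgeR adjusted p = 0.0523) and with the DESeq2 Wald test (DESeq2 adjusted p = 0.0748). *DUSP14* rose by 0.54 at 6 h and stood at 0.04 at 24 h, a difference of -0.51 that passed. *DUSP12* rose by 0.38 and 0.35, the latter 0.21 without DMSO replicate 3 of 24 h, and 22.0% of its exonic length overlaps another gene. *DUSP28* and *DUSP18* rose at 6 h, by 0.56 and 0.61, and *DUSP22* at 24 h, by 0.47. The *DUSP18* call was lost without any 1 of DMSO replicates 1 and 2 and NXP800 replicates 2 and 3 of 6 h, at 0.51 to 0.54, and 40.1% of its exonic length overlaps another gene. *DUSP15* was under 1 CPM and its fall of -0.83 at 6 h was lost with the DESeq2 Wald test and without any 1 of DMSO replicate 2 and NXP800 replicates 1 and 2 of 6 h, at -0.78 to -0.85. No filter on low counts (edgeR adjusted p = 0.0971) also removed that call. *DUSP26*, also under 1 CPM, passed at neither time.

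The response to NXP800 differed between 24 h and 6 h for 20 of the 59 genes, 33.9% against 25.8% of all tested genes. It was higher at 24 h for 7 (background 12%) and lower for 13 (background 13.8%). Reads on no annotated gene were 6.66 to 8.14% in the 6 h libraries and 2.73 to 3.67% in the 24 h libraries. The part of this gap between the 2 sets of libraries in the differences was not tested. The 6 largest differences by size were those of *MAP2K6* (-4.36), *DUSP1* (-1.34), *DUSP6* (-1.18), *DUSP15* (1.10), *MAP3K14* (-1.03) and *MAP2K3* (-0.96). They are of different kinds. *DUSP1* rose at both times and less at 24 h, *MAP2K6* and *MAP3K14* fell at both and more at 24 h, *MAP2K3* fell at 24 h alone, and *DUSP6* was called in opposite directions. The *DUSP15* difference was lost with the replicate block (1.10, edgeR adjusted p = 0.0505). No filter on low counts (edgeR adjusted p = 0.15) and the DESeq2 Wald test (DESeq2 adjusted p = 0.171) removed that call too. It was also lost without any 1 of 11 of the 12 libraries, at 1.00 to 1.14, the exception being NXP800 replicate 2 of 24 h.

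**Figure D4:**
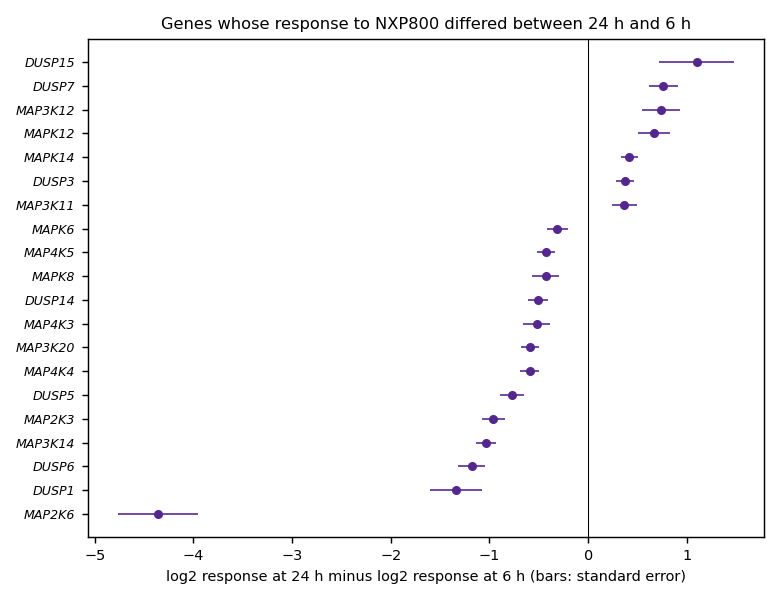
Log2 response at 24 h minus log2 response at 6 h (horizontal axis, bars for the standard error) for the 20 genes that passed the test of that difference. The 7 genes to the right of 0 and the 13 to the left are ordered by size, from *DUSP15* at 1.10 to *MAP2K6* at -4.36.

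Other genes of these pathways, listed by their known role with earlier results of these data at hand, were counted in the same fit. Beside their counts stand the shares of all tested genes, of which 25.0% rose and 27.8% fell at 6 h (52.8% in all), and 27.5% rose and 28.6% fell at 24 h (56.0% in all). Of the 12 genes that carry RAS and RAF input to ERK, 3 rose and 4 fell at 6 h, and 2 rose and 4 fell at 24 h, so that 58.3 and 50% were called, close to the background, with medians of 0.04 and -0.01. *KSR2*, a scaffold of the RAF kinases, had the largest rise at 6 h (0.96, under 2 CPM), *SOS2*, an activator of RAS, at 24 h (0.54), and the largest falls were those of *HRAS* at 6 h (-0.41) and the adaptor *SHC1* at 24 h (-0.40). Of the 7 Sprouty and Spred genes, feedback inhibitors of ERK signalling, 3 rose and 1 fell at 6 h, and 3 rose and 3 fell at 24 h (57.1 and 85.7% called, medians 0.38 and 0.08). *SPRY2* went from 71.2 ± 9.07 to 295 ± 53.3 CPM at 6 h, a rise of 2.05, and rose by 1.30 at 24 h, while *SPRY1* fell by -1.06 and -1.59. All 9 genes listed as induced by ERK were called at 6 h, 8 up and 1 down, with a median of 0.82. Among them the *EGR1* groups overlapped at 6 h, with 58.2, 19.2 and 27.3 CPM with DMSO and 206, 39.0 and 52.1 CPM with NXP800. Its rise of 1.51 ± 0.51 (edgeR adjusted p = 0.0213) was largest in replicate 1. At 24 h 2 rose and 2 fell, 44.4% and thus below the background share, with a median of 0.05. *PHLDA1* rose most at both times, by 1.69 and 0.91, the cyclin D1 gene *CCND1* was the one that fell at 6 h, by -0.50, and the receptor gene *EPHA2* fell most at 24 h, by -0.67.

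Of 15 adaptors and activators of JNK and p38, 9 rose and 2 fell at 6 h, and 9 rose and 3 fell at 24 h (73.3 and 80% called, medians 0.45 and 0.35, against the same background). *GADD45A*, a stress-induced activator of the p38 and JNK kinase MEKK4, rose from 37.8 ± 2.08 to 233 ± 42.1 CPM at 6 h, by 2.63, and by 1.70 at 24 h. *ERN1*, which encodes IRE1α, the endoplasmic reticulum sensor that also recruits TRAF2 to activate JNK, rose by 2.61 and 1.63. The largest falls were those of *GADD45G* at 6 h (-1.05, under 1 CPM) and of *TRAF2* itself at 24 h (-0.50). Of the 10 tested kinases that MAP kinases activate, 3 rose and 4 fell at 6 h, and 5 rose and 3 fell at 24 h (70 and 80% called, medians -0.05 and 0.21). *RPS6KA2* (RSK3) rose by 2.02 and 2.65 and *RPS6KA1* (RSK1) fell by -1.20 and -0.98. Of 4 tested phosphatases from other families, 3 rose at 6 h and 2 at 24 h (75 and 50% called, medians 0.28 and 0.19), led by *PPM1B* at 6 h (0.84) and *PPM1A* at 24 h (0.46). Of 7 nuclear substrates of JNK and p38, 5 rose and 1 fell at 6 h, and 4 rose and 1 fell at 24 h (85.7 and 71.4% called, medians 0.42 and 0.43). *JUN*, the namesake substrate of JNK and itself a target of AP-1, had 154, 119.9 and 130.2 CPM with DMSO and 403, 273 and 248 CPM with NXP800 at 6 h, and 114, 106 and 124 CPM against 164, 252 and 214 CPM at 24 h. The groups did not overlap, with rises of 1.19 and 0.88, and *MEF2C*, encoding a p38 substrate, fell by -0.64 and -1.16.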

How the data were processed

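RNA was measured in 12 libraries of MNNG/HOS cells, made with a strand-specific mRNA kit. The deposited values are raw counts of reads per gene, which the authors made without normalization. The submitters' processing notes name fastp 0.20.1, STAR 2.7.5a, HTSeq 0.12.4 and the build GRCh38.p14. The strand setting and overlap mode of the counting are not given in the sources used here, and reads shared with near-identical copies of a gene were not assessed. Entries naming no gene (no feature 2.73 to 8.14%, ambiguous 2.10 to 2.43%, aligned to several places 1.86 to 3.37% per library) entered neither library sizes nor tests.

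Counts were fitted in R 4.3.3 with edgeR 4.0.16 (TMM scaling, filterByExpr, quasi-likelihood test) in one model of the 4 groups, leaving 15979 genes. A gene was called where its p, adjusted over all of them by the method of Benjamini and Hochberg, was below 0.05, and standard errors are the log2 fold change divided by the square root of F. The code was tested on simulated data. Alternatives were DESeq2 1.42.0, other scalings, filters and a stricter threshold, the 6 libraries of one time point alone, a replicate block, and each library left out in turn. The common dispersion was 0.007231, and at this depth the spread between replicates limits the precision of all but low genes. No pair of replicates agreed within sampling noise (chi-square over degrees of freedom 7.36 to 26.4). Replicate numbers come from the labels. Within a time point, the deviations of same-numbered DMSO and NXP800 libraries correlated at r = 0.159 to 0.329, and those of other pairs at -0.268 to 0.058. Same-numbered libraries of a time point thus deviate together, while the labels do not state a pairing and the main model holds none. Pairing across time points was not measured, while the replicate block gives each number the same effect at both. Blocked values are given beside the calls that they change.

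Exon lengths and overlaps, on either strand, are from GENCODE v44, whose models can differ from those counted on. Gene positions and promoters are RefSeq's for GRCh38.p14, with promoters for 58 of the 67 genes. Classes follow known substrate or family. Values in every library are given for *MAPK3*, *MAPK8*, *MAPK9* and *MAPK14*, for *JUN*, and in each class for up to 3 called genes with the largest change and a mean log2 CPM of at least 1. In each pathway list the largest called rise and fall were named. The members and lists were chosen with earlier results of these data known. Protein sequences were not used here, and 1 tested member, which enters the counts over all members, is not reported singly.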

Additional observations from a re-analysis of the deposited data

Results flagged for a closer look

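The response to NXP800 differed between 24 h and 6 h for 20 of 59 tested genes by the test of the difference itself. That is 33.9%, against 25.8% of all tested genes. Each value below is the log2 response at 24 h minus that at 6 h. Of the genes higher at 24 h, *DUSP7*, *DUSP15*, *MAPK12*, *MAPK14*, *MAP3K11* and *MAP3K12* were called as falling at 6 h. *DUSP3* rose at both times. Lower at 24 h among the phosphatases were *DUSP1* (-1.34), *DUSP6* (-1.18), *DUSP5* (-0.77) and *DUSP14* (-0.51), and higher were *DUSP15* (1.10), *DUSP7* (0.76) and *DUSP3* (0.37). In the p38 branch *MAP2K6* (-4.36) and *MAP2K3* (-0.96) were lower, and *MAPK12* (0.67) and *MAPK14* (0.42) were higher. *MAPK8* (-0.43) and the atypical kinase gene *MAPK6* (-0.31) were lower. Of the MAP3K genes, *MAP3K14* (-1.03) and *MAP3K20* (-0.59) were lower and *MAP3K12* (0.74) and *MAP3K11* (0.37) higher. *MAP4K3* (-0.52), *MAP4K4* (-0.59) and *MAP4K5* (-0.43) were lower. The differences of *MAPK3* (-0.32) and *MAP2K2* (0.12) did not pass this test.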

How the results depend on the processing

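No value called as reported or under an alternative changed sign between them. Among values called in neither, the sign differed in 78 of 3287 recomputed values. Of the calls, 31 of 41 at 6 h, 30 of 35 at 24 h and 16 of 20 differences between time points held under every setting that tested the gene at an adjusted p below 0.05. With a threshold of 0.01, the members that fell at 6 h went from 20 to 12 and those with a higher response at 24 h from 7 to 4. Leaving out 1 library at a time gave 33 to 42 calls at 6 h (19 to 23 up, 14 to 21 down), 32 to 35 at 24 h (15 to 17 up, 16 to 19 down) and 16 to 22 differences (5 to 8 higher, 11 to 15 lower). The replicate block, a single effect per replicate number over both time points, gave 43, 37 and 19 calls. Beyond the changes named in the report it changed no call of these genes. It does not model a pairing within each time point separately. Scaling by library size only moved the median of all genes at 24 h by 0.0892, and the share of rises among all calls from 49.0 to 58.7% at 24 h and from 46.6 to 59.6% in the difference. Under it the difference of *MAPK6* (-0.24, edgeR adjusted p = 0.119) and of *MAPK8* (-0.36, edgeR adjusted p = 0.0783) lost their calls. The same scaling gave calls to the differences of *MAP2K7* (0.29, edgeR adjusted p = 0.0283) and *MAP3K10* (0.66, edgeR adjusted p = 0.0456). It also gave calls to *MAP2K4* at 6 h (edgeR adjusted p = 0.036) and *DUSP28* at 24 h (edgeR adjusted p = 0.0363). The *MAP3K10* difference passed too with no filter on low counts (edgeR adjusted p = 0.0199) and with the DESeq2 Wald test (DESeq2 adjusted p = 0.0473). Fitting only the 6 libraries of a time point added 6 h calls for *MAP2K4*, *MAP3K7*, *MAP3K9*, *MAP4K2* and *DUSP22* (edgeR adjusted p from 0.00895 to 0.048). It removed those of *MAPK9* at 6 h and of *MAPK7*, *MAPK14* and *MAP3K4* at 24 h (edgeR adjusted p from 0.0515 to 0.0959). The *MAP3K11* difference (edgeR adjusted p = 0.0466) was lost without any 1 of the libraries other than NXP800 replicate 3 of 6 h and NXP800 replicate 2 of 24 h, at 0.29 to 0.40. That of *MAPK6* (edgeR adjusted p = 0.0457) was lost without any 1 of DMSO replicates 2 and 3 and NXP800 replicates 1 and 2 of 6 h, or DMSO replicates 1 and 2 and NXP800 replicate 3 of 24 h, at -0.24 to -0.32. The cause of these changes was not tested. Depth limits *DUSP8*, *DUSP15*, *DUSP26*, *MAPK10* and *MAPK11*, whose counts are low.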
